A study of Mus musculus with 2 samples.

Results

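The 10 genes described here are interferon-induced antiviral genes of the mouse: the OAS-like genes Oasl1 and Oasl2, the oligoadenylate synthetase genes Oas1a, Oas2 and Oas3, the IFIT genes Ifit1, Ifit2 and Ifit3, Rsad2 and Isg15. They were taken by name, and every probe of each gene was used, which gave 12 probes among the 38393 probes tested and 10 genes among the 16067 genes tested. The genes were picked with the ratios of these same arrays known, so their ratios are given as a description and carry no p-value. The study compared mouse embryonic stem cells (ESCs) labelled HDAC6 overexpression with wild-type (WT) ESCs on 2 two-colour Agilent arrays. In both groups the cells were of the B6C3F1 strain, were at passage 26 and grew with LIF on a feeder layer of mouse embryonic fibroblasts that mitomycin C had stopped from dividing. On each array, RNA of the overexpressing cells carried Cy5 and RNA of the WT cells carried Cy3. The labels do not say how HDAC6, a mainly cytoplasmic deacetylase, was introduced or whether the line was 1 clone.

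Type I interferons bind a receptor on the cell surface and, through the kinases JAK1 and TYK2, activate the transcription factor complex ISGF3, which holds STAT2 and IRF9. ISGF3 binds interferon-stimulated response elements in the promoters of antiviral genes. Oligoadenylate synthetases make a short RNA-like messenger when they meet double-stranded RNA, which leads to the breakdown of RNA in the cell. IFIT proteins bind viral RNA, viperin (Rsad2) makes a chain-terminating nucleotide, and ISG15 is a ubiquitin-like protein that is attached to other proteins. Undifferentiated ESCs are known for a weak response to interferon.

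The promoters of 5 members that differed in their ratios are shown first, because a shared response element is the feature these genes are known for. Each sequence is the 250 bases before the gene's start, 5′ to 3′ on the gene's strand, from RefSeq on GRCm38.p6. Capitals mark matches to the core of an interferon-stimulated response element, searched as GAAA, any 2 bases and again GAAA, or on the other strand as TTTC, any 2 bases and again TTTC, with overlapping matches counted.
Oasl2, chr5:114896684-114896933, plus strand: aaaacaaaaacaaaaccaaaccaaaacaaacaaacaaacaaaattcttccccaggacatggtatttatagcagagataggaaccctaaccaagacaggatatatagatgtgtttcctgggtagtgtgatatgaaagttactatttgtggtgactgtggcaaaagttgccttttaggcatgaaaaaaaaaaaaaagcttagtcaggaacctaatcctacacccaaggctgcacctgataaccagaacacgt
Rsad2, chr12:26456453-26456702, minus strand: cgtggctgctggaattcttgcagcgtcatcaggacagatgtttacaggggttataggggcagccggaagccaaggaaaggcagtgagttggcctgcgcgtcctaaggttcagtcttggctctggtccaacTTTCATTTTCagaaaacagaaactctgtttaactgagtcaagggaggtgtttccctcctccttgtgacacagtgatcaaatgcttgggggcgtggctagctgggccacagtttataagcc
Isg15, chr4:156200819-156201068, minus strand: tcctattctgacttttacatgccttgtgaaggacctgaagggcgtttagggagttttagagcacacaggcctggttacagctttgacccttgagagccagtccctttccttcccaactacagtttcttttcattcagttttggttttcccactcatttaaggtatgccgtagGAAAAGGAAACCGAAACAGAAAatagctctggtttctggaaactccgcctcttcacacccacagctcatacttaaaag
Oas1a, chr5:120907526-120907775, minus strand: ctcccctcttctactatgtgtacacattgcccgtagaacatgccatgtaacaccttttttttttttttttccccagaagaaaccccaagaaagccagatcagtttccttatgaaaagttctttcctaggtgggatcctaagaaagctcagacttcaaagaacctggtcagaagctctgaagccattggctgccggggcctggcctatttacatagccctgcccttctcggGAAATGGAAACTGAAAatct
Ifit3, chr19:34583279-34583528, plus strand: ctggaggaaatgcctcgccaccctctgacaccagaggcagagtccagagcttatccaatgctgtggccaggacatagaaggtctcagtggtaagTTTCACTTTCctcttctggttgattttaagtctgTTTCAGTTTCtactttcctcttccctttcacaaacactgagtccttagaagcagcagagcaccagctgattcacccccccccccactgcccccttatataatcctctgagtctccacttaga
Isg15 held 3 overlapping matches, which start 78, 72 and 66 bases before the gene's start. Oas1a held 2 overlapping matches at 20 and 14 bases, Ifit3 held 2 at 156 and 122 bases, and Rsad2 held 1 at 120 bases. Neither form of these letters was present in the Oasl2 window. Among the other members, Ifit1 held 2 matches and Oas3 held 1, while Oasl1 and both Ifit2 promoters held 0. RefSeq promoters were matched for 9 members, Oas2 being the exception, and 6 of these 9 genes held a match. Of all 32851 promoters of the same length 2.98% held a match, as did 3.11% of the tested genes with a promoter. Among genes at least 2-fold lower on both arrays, 33 of 541 (6.1%) held a match. These 541 include the members Rsad2, Isg15 and Oas3, and no share was computed for genes at least 2-fold higher. Of the members lower on both arrays, Rsad2, Isg15, Oas3 and Ifit1 held a match, while Oasl2, Oasl1 and Ifit2 did not. Oas1a and Ifit3, which were not lower on both arrays, held matches too.

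All 12 member probes were well above background in both channels on both arrays, so none of the ratios is a bound. Over all spots other than controls, 69.4% and 69.3% were well above background in the overexpression channel of replicates 1 and 2, against 69.6% and 68.8% in the WT channel. Hdac6 itself passed the test under 1 scaling only. Its brighter probe had a signal of 18275 and 17344 in the overexpression channel, against 16389 and 17806 in the WT channel (log2 ratio 0.06 ± 0.14, SD, n = 2, limma adjusted p = 0.671). With normexp and median centring in place of the dye normalization the same probe had 0.52 ± 0.205 (limma adjusted p = 0.00077), and the other Hdac6 probe had 0.50 against 0.089. Whether that probe would see an introduced Hdac6 transcript could not be told from the files, so it does not check the labels. Of 10 ESC markers, 10 were tested, and 3 were higher and 4 lower (limma), beside 19.4% and 27.7% over all genes. Their summed signal was 173800 and 188110 in the overexpression channel against 196072 and 208502 in the WT channel. Both arrays have the same dye orientation, so dye effects remain in every ratio. Whether the 2 RNAs of a group came from separate cultures is not settled, and p-values then measure only the spread between these arrays.

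The members did not behave as a block. Of the 10 genes, 4 were at least 2-fold lower in the overexpression channel on both arrays, namely Oasl2, Rsad2, Oas3 and Isg15, where 4.39% of all genes tested were. None of the 10 was at least 2-fold higher, where 3.03% of all genes were. With limma, 7 were called lower and 1 higher at an adjusted p under 0.05, against 27.7% lower and 19.4% higher over all genes, and since the members were chosen on this contrast nothing is read from these counts. The higher call, of Oas1a, was lost when dim probes were not filtered or a gene's probes were averaged. The median log2 ratio was -0.76 over the members, -0.92 in replicate 1 and -0.60 in replicate 2, beside -0.061 over all genes. The mean log2 ratios of single members ran from -2.44 for Oasl2 to 0.34 for Oas1a. Signals below are processed intensities, and a level is compared only between channels of the same probe.

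**Figure D1:**
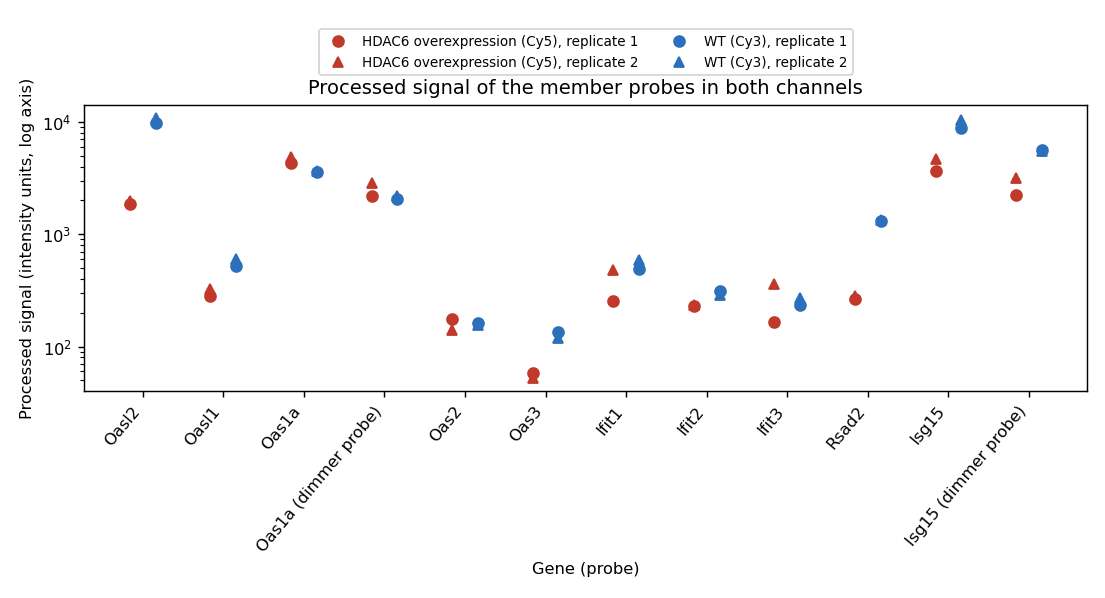
Processed signal (intensity units, log axis) of the 12 member probes, with the HDAC6 overexpression channel in red left of the WT channel in blue, and circles for replicate 1 and triangles for replicate 2. Oasl2, Rsad2, Oas3 and Isg15 separate clearly between channels, Oas1a and Oas2 lie close together, and for Ifit1 and Ifit3 the overexpression channel differs between the replicates.

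Oasl2 encodes an OAS-like protein with ubiquitin-like domains and was the lowest member. Its probe had a signal of 1861 and 1958 in the overexpression channel, against 9817 and 10883 in the WT channel. The channels did not overlap, and the overexpression channel was 5.41-fold lower (log2 ratio -2.44 ± 0.053, SD, n = 2). Only 54 of the 16067 genes, Oasl2 included, had a mean ratio this low. Oasl1, an OAS-like gene whose product restrains translation of the interferon regulator IRF7 in mouse, had 284 and 325 in the overexpression channel, against 521 and 604 in the WT channel. This was lower by a smaller factor of 1.85 (-0.88 ± 0.017), with nearly the same ratio on both arrays.

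The oligoadenylate synthetase genes proper were divided. Oas3, which encodes the largest synthetase, had 57.8 and 52.3 in the overexpression channel, against 134 and 120 in the WT channel. That is 2.31-fold lower (-1.20 ± 0.0046), but it was the dimmest member probe, and its ratio depended on how background was treated: background correction of the raw signals by normexp gave -0.82 with loess. Oas2 had 176 and 141 in the overexpression channel, against 161 and 157 in the WT channel. Here the channels overlapped and the ratio had opposite signs on the 2 arrays (0.13 and -0.15). Oas1a, one of the mouse Oas1 copies that encode an active synthetase, was slightly higher. Its brighter probe had 4272 and 4903 in the overexpression channel, against 3560 and 3678 in the WT channel (0.34 ± 0.11). The other Oas1a probe had 2200 and 2857, against 2042 and 2180 in the WT channel (0.25 ± 0.20), so both probes went the same way on both arrays.

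The remaining Oas1 genes of the same chromosome 5 cluster, which are not members, went in both directions too. Of 7 such genes, 5 had a tested probe, and 3 of these were lower and 1 higher, beside 27.7% and 19.4% over all genes. Oas1c had 1862 and 1643 in the overexpression channel, against 4083 and 5051 in the WT channel, and fell 2.6-fold (-1.38 ± 0.34, limma adjusted p = 0.00141). Oas1f fell 2.18-fold (-1.13 ± 0.0031, limma adjusted p = 0.000894) and Oas1e had -0.66 ± 0.15 (limma adjusted p = 0.00574). Oas1d rose, with 1207 and 1139 in the overexpression channel, against 707 and 806 in the WT channel (0.63 ± 0.19, limma adjusted p = 0.00759). Oas1h had 0.06 ± 0.14 (limma adjusted p = 0.67), and neither probe of Oas1g was well above background in either channel. These copies are close in sequence, and probes that share targets were not checked, so the values of single Oas1 genes are uncertain to that extent.

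**Figure D2:**
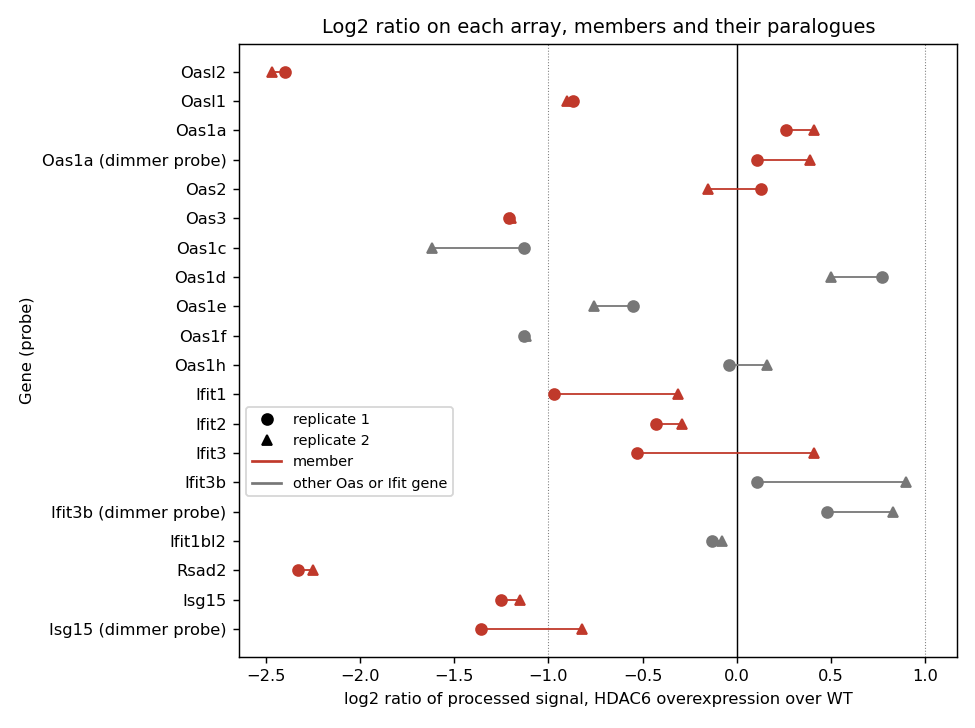
Log2 ratio of processed signal, HDAC6 overexpression over WT, for each probe, with replicate 1 as circles and replicate 2 as triangles joined by a line. Members are red and other Oas and Ifit genes grey, and dotted lines mark a 2-fold change. Oasl2 and Rsad2 lie below -2 on both arrays, while Ifit3 lies at -0.53 in replicate 1 and 0.41 in replicate 2.

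Among the IFIT genes, which lie together on chromosome 19, Ifit3 and Ifit1 differed between the 2 arrays more than the other members. Ifit1, whose product binds viral RNA at its 5′ end, had 253 and 476 in the overexpression channel, against 494 and 590 in the WT channel. All values of the overexpression channel lay below those of the WT channel, but replicate 1 had a log2 ratio of -0.97 while that of replicate 2 was -0.31 (mean -0.64 ± 0.46). Ifit2, which encodes another RNA-binding IFIT protein, had 231 and 235, against 310 and 288 in the WT channel (-0.36 ± 0.10), a small difference in the same direction on both arrays.

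Ifit3 had 164 and 361 in the overexpression channel, against 236 and 272 in the WT channel. It was lower in replicate 1 (-0.53) and higher in replicate 2 (0.41), and its mean of -0.058 ± 0.66 therefore describes neither array. Its shift between the arrays, 0.94 on the log2 scale, was matched or passed by 0.747% of all genes, and that of Ifit1, 0.66, by 2.2%. Over all genes this shift had a median of -0.0026 and an SD of 0.27. Ifit3b, a near copy of Ifit3 that is no member, shifted likewise, by 0.79. Its brighter probe had 210 and 381 in the overexpression channel, against 194 and 204 in the WT channel (0.51 ± 0.56, limma adjusted p = 0.0752). The dimmer Ifit3b probe had 0.66 ± 0.25 (limma adjusted p = 0.00861), so the gene's call depends on the probe. Probes of Ifit3 and Ifit3b may share transcripts. Ifit1bl2, by contrast, had -0.10 ± 0.04 (limma adjusted p = 0.418), and the probe of Ifit1bl1 was not well above background.

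**Figure D3:**
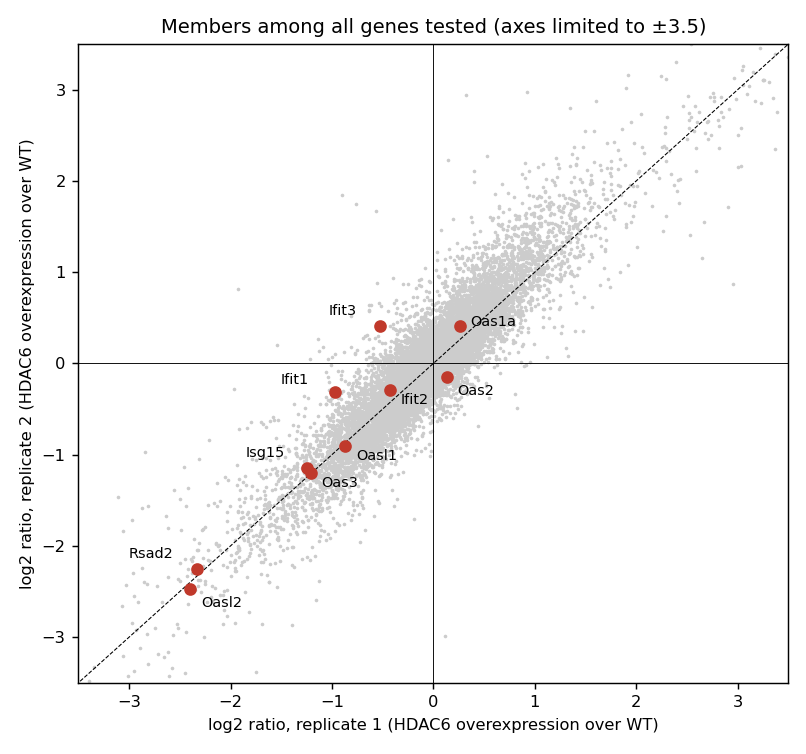
Log2 ratio of HDAC6 overexpression over WT in replicate 1 (x axis) and replicate 2 (y axis) for all tested genes in grey and the 10 members in red, each gene by its brightest probe. The dashed line marks equal ratios and 53 genes lie outside the axes. Oasl2 and Rsad2 sit at the low end close to the line, and Ifit3 and Ifit1 sit above it.

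Rsad2 encodes viperin. Its probe had 263 and 283 in the overexpression channel, against 1323 and 1343 in the WT channel. The channels were far apart on both arrays, and the overexpression channel was 4.89-fold lower (-2.29 ± 0.058). Only 81 of all genes, Rsad2 included, had a mean ratio this low. The gene next to it on chromosome 12, Cmpk2, encodes a nucleotide kinase that supplies viperin's substrate and is not a member. Cmpk2 had 399 and 418 in the overexpression channel, against 1137 and 1157 in the WT channel, and fell as well (-1.49 ± 0.027, limma adjusted p = 0.000414). For another Cmpk2 probe the overexpression channel failed to stand well above background, and its signal was at least 2.16-fold lower than in the WT channel, through which alone it entered the test. Such a bound sets the brighter channel against the lowest signal that counts as well above background, or the dim probe's own signal where that is higher. It was computed per channel after Aquantile scaling and is open to dye bias. With normexp and loess the dimmer Cmpk2 probe had a log2 ratio of -0.85, less than 2-fold. Its bound of 2.16-fold therefore depends on how background was treated.

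Isg15 encodes the ubiquitin-like modifier and has 2 probes. The brighter had 3681 and 4678 in the overexpression channel, against 8739 and 10407 in the WT channel (-1.20 ± 0.066, 2.3-fold lower). The other had 2214 and 3152, against 5667 and 5548 in the WT channel (-1.09 ± 0.38). All overexpression values of each probe lay below its WT values, although the second probe was 2-fold lower in replicate 1 only. Of 5 tested genes that attach or remove ISG15, 1 rose and 1 fell, beside 19.4% higher and 27.7% lower over all genes. Ube2l6, the conjugating enzyme gene for ISG15, had 7485 and 8739 in the overexpression channel, against 1792 and 1686 in the WT channel. It rose 2.22 ± 0.22 on the log2 scale (limma adjusted p = 0.000218), opposite to Isg15. Herc6, the ISG15 ligase gene in mouse, fell (-1.34 ± 0.18, limma adjusted p = 0.000797), and its other probe had -1.92 ± 0.28. Usp18, which encodes the protease that removes ISG15, had 382 and 674 in the overexpression channel, against 440 and 550 in the WT channel, with opposite signs on the 2 arrays (-0.20 and 0.29).

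Beyond the members and the other Oas and Ifit genes, 51 of 64 genes listed for the wider pathway were tested. Of these 51, 23 were lower (45.1%) and 11 higher (21.6%), beside 27.7% and 19.4% over all genes, and 13 were at least 2-fold lower and 2 at least 2-fold higher on both arrays (4.39% and 3.03% over all genes). Some of these probes entered the test through 1 channel alone, and among the 47 genes measured in both channels 21 were lower and 10 higher. Among antiviral effectors, 15 of 27 tested genes were lower and 6 higher. Parp14, an interferon-induced ADP-ribosyltransferase gene, had 1293 and 1221 in the overexpression channel, against 4589 and 4720 in the WT channel (-1.89 ± 0.087, limma adjusted p = 0.000227). Ifi35 fell (-1.79 ± 0.32, limma adjusted p = 0.000608), as did Trim21, the gene of a cytosolic antibody receptor (-1.63 ± 0.0081, limma adjusted p = 0.000317). Trim30a stood well above background in WT cells only and was at least 1.44-fold lower in overexpressing cells, having entered the test through the WT channel alone. Effectors that rose were led by Ifi27 (1.31 ± 0.39, limma adjusted p = 0.0019), Ifi204 (0.98 ± 0.067, limma adjusted p = 0.00139), Slfn2 (0.97 ± 0.31, limma adjusted p = 0.00322) and Ifi44 (0.92 ± 0.21, limma adjusted p = 0.00256).

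Sensors of viral nucleic acid were lower in 6 and higher in 3 of 13 tested genes, adaptors and kinases included, beside 27.7% and 19.4% over all genes. Zbp1, a sensor of Z-form nucleic acid, had 2031 and 2222 in the overexpression channel, against 9765 and 9757 in the WT channel (-2.20 ± 0.093, limma adjusted p = 0.000145). The cytosolic RNA sensor genes Ifih1 (-1.24 ± 0.30, limma adjusted p = 0.00153) and Dhx58 (-1.24 ± 0.049, limma adjusted p = 0.000719) fell. Tlr3, the endosomal receptor for double-stranded RNA, fell too (-2.00 ± 0.62, limma adjusted p = 0.00147), with the overexpression channel well above background on 1 of the 2 arrays, and its size depended on background treatment (-1.13 with normexp and loess). The genes that rose were the kinase gene Ikbke (0.69 ± 0.32, limma adjusted p = 0.0103), the Toll-like receptor adaptor gene Ticam1 (0.60 ± 0.25, limma adjusted p = 0.0114) and the interferon regulator gene Irf7 (0.45 ± 0.35, limma adjusted p = 0.0472). Irf7 was dim, with the WT channel well above background on 1 of the 2 arrays, and entered the test through the overexpression channel alone. The call of Irf7 was lost with normexp and loess (0.17, limma adjusted p = 0.167). Of 6 tested receptor and ISGF3 genes, 1 passed the test, the receptor subunit gene Ifnar2 (0.33 ± 0.061, limma adjusted p = 0.0416), and that call was lost when dim probes were not filtered (limma adjusted p = 0.0833). Stat2 had -0.38 ± 0.25 (limma adjusted p = 0.0512, and 0.00561 with normexp and loess) and Irf9 had -0.20 ± 0.057 (limma adjusted p = 0.157). Of 8 interferon genes 1 was tested, Ifnl3, whose brighter probe had -0.76 ± 0.13 (limma adjusted p = 0.00347) and whose other probe had 0.21 ± 0.045 (limma adjusted p = 0.13), so its probes disagree. The Ifnb1 probe was not well above background in any channel.

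**Figure D4:**
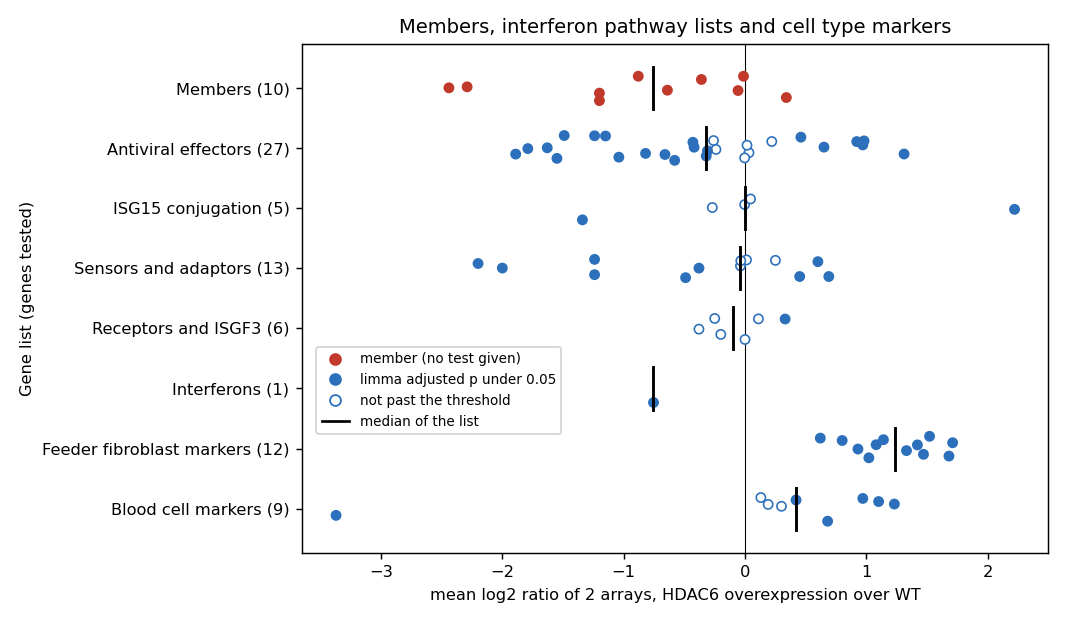
Mean log2 ratio of the 2 arrays, HDAC6 overexpression over WT, for each tested gene of the members, of the pathway lists and of 2 marker lists, with the number of genes in brackets. Filled blue points passed limma at an adjusted p under 0.05, open points did not, and black bars are list medians. The members spread from -2.44 to 0.34, and all feeder fibroblast markers lie above 0.

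Genes listed as feeder fibroblast markers moved the other way from most members. Of 12 feeder fibroblast markers, 12 were higher (limma), where 19.4% of all genes were higher and 27.7% lower. Their median log2 ratio, 0.92 for replicate 1, was 1.52 for replicate 2. The mean ratios of single feeder markers ran from 0.62 to 1.71. Their summed signal was 222173 and 285127 in the overexpression channel, against 117040 and 100873 in the WT channel. Of the 10 members, 7 had the higher ratio in replicate 2, as did 49.5% of all genes, and the members' shift between the arrays ran from -0.28 for Oas2 to 0.94 for Ifit3. Blood cell markers were higher in 5 and lower in 1 of 9 tested genes (Cd68 was not tested), with a summed signal of 47182 and 59176 in the overexpression channel against 32361 and 51797 in the WT channel. Of 8 primitive endoderm markers 8 were higher, with summed signals of 86992 and 88157, against 11101 and 13837 in the WT channel. In such bulk RNA, the cells that expressed a marker are not known, and the feeder markers need not come from feeder cells alone. Fewer cells of a type and less RNA per cell cannot be told apart either. The part of these markers in the members' ratios was not tested.

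Genes that flank the 5 member loci were compared in RefSeq gene order. Of 30 such genes with a tested probe, 3 on each side of a locus, 7 were lower and 10 higher, beside 27.7% and 19.4% over all genes. The neighbour with the highest ratio was Allc beside Rsad2, with 68.5 and 85.0 in the overexpression channel, against 8.79 and 9.73 in the WT channel. Allc was not well above background in WT cells, entered the test through the overexpression channel alone and was at least 1.84-fold higher there. Apart from Cmpk2, none of the lower neighbours reached a log2 ratio of -1 in the mean. Beside the Ifit cluster, the cholesterol hydroxylase gene Ch25h, itself interferon-induced, had 842 and 1653 in the overexpression channel, against 296 and 382 in the WT channel, and rose (1.81 ± 0.43, limma adjusted p = 0.00093). Fas, the death receptor gene on the same side, rose as well (0.94 ± 0.21, limma adjusted p = 0.00233), whereas the lysosomal lipase gene Lipa fell (-0.48 ± 0.0099, limma adjusted p = 0.0115). The 5 genes whose pair of ratios lay closest to the median pair of the 4 members at least 2-fold lower (-1.79 and -1.73) were Shisa3, Lrrc18, Vmo1, Dlx4 and Mapk10, at Euclidean distances of 0.04 to 0.0514 over 2 arrays.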

How the data were processed

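Gene expression was measured on 2 two-colour arrays, each with 62976 spots of which 3671 are controls, from Trizol-extracted RNA amplified by Eberwine's linear method, per the labels' protocols. Per the file headers, the authors read the scans with Agilent Feature Extraction 11.5.1.1, and the deposited processed intensity values were background-subtracted and dye-normalized within the array. The deposited log10 ratio is that of processed Cy5 over processed Cy3. The raw median intensity of spot and local background, as deposited, carries no normalization. A deposited table of the whole series gives log2 values in 55821 rows. They correlated with the scanner ratios at -1 with slopes of -1 on both arrays, so they run as WT over overexpression, with no further centring. Their column medians were -0.00742 and 0.0624.

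Control spots and 269 and 313 outlier-marked spots were left out, 0 spots were saturated, and spots of a probe were averaged. The log2 ratio of processed Cy5 over Cy3 was tested against 0 in limma 3.58.1 under R 4.3.3 (lmFit and eBayes, intercept only, two-sided, Benjamini-Hochberg) over the probes that stood well above background in the same channel, once per array. The prior had 4.75 degrees of freedom beside 1 residual. Simulated data for this comparison held 38393 probes, 200 of them changed, in 10 draws. Of log2 changes of 0.5, 3% were recovered, as were 88% of 1 and 100% of 2 or 4. False calls had a median of 8.89% and were at most 27.9%. In the data 4453 genes were called lower and 3112 higher, many more than were simulated as changed. The rates of the simulation therefore do not describe the calls in the data. Unversioned accessions paired 26756 probes with 1 symbol, 0 with several and 28925 with none in a RefSeq table of GRCm38.p6, used for names, gene order and promoters only, since the array's grid has another build. A gene is represented by its brightest tested probe.

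The members, the lists and the alternatives were chosen with earlier results of these data known. The naming rule took all members, the other Oas and Ifit genes, up to 4 genes of each list with the largest change past the threshold, 3 neighbours on each side of a locus and the 5 closest ratio pairs. Genes named outside it (Hdac6, Stat2, Irf9, Usp18, Ifnb1, Ifi27, Ifi204, Slfn2, Ifi44, Ikbke, Ticam1 and Irf7) were chosen after their values were seen. The number of arrays limits the precision. Both arrays were on 1 slide, so there is no batch to test.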

Additional observations from a re-analysis of the deposited data

How the results depend on the processing

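The deposited series table, with its sign turned, gave the same counts as the processed signals, and keeping outlier-marked spots changed the counts by little. Normexp with loess on the raw signals gave 454 genes at least 2-fold lower and 288 higher on both arrays, against 706 and 487. Normexp with median centring gave 4825 genes called higher, against 3112, and split the calls 4825 higher and 4772 lower. Without replicate 1 or 2, the genes at least 2-fold lower were 855 to 1068 and those higher 566 to 893, values with no test. Among the members, the 1 higher call, Oas1a, was lost without a filter on dim probes and with the mean over probes (0 called higher each), and without the filter Ifit2 was no longer called lower, leaving 6 of 7. Members at least 2-fold lower were 3 with normexp under either scaling, where Oas3 dropped out, and with the mean over probes, where Isg15 did. The members' median log2 ratio ran from -0.92 to -0.60 without 1 array. Ifit3 turned to 0.41 without replicate 1 and Oas2 to 0.13 without replicate 2. The neighbour gene Ttll10 turned to -0.0015 with median centring. Counted over single pathway and neighbour genes, Hdac6 and settings, the threshold was gained 22 times and lost 16 times without a change of sign. Ttll10 also lost it where its sign turned (limma adjusted p = 0.991). The cause of these changes was not tested. No separate paired analysis was run, because each replicate number is 1 array, whose ratio already pairs both RNAs.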
